A study of Mus musculus with 12 samples.

Results

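The 45 genes described here act between the end of DNA synthesis and the separation of daughter cells: cyclins with their kinase and its activating phosphatases, mitotic kinases, spindle and kinetochore proteins, the spindle checkpoint, regulators of the anaphase-promoting complex and the machinery of cytokinesis. They were chosen by symbol, as mitosis and G2/M genes, from the 53819 genes of the deposited count files. All 45 were found, and all 45 were among the 13151 genes with enough counts to be tested. Monocytes came from the bone marrow of wild-type (WT) C57Bl6J mice, and their RNA was sequenced in 12 libraries, 3 for each of 4 groups. In the platelets + LPS group (PLT_LPS), cells were kept with platelets overnight, washed and then exposed to LPS, the bacterial lipopolysaccharide that Toll-like receptor 4 detects. The platelet group (PLT) had the overnight contact with platelets alone, the LPS group had LPS alone, and the untreated group (NC) had neither. The sources used here give no doses, no time with LPS and no age of the mice.

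Entry into mitosis is driven by cyclin-dependent kinase 1 (CDK1) bound to A- and B-type cyclins. CDC25 phosphatases switch this complex on, and Polo-like and Aurora kinases act beside it to build the spindle and attach chromosomes. The spindle checkpoint then holds back the anaphase-promoting complex (APC/C), which, once released, marks cyclins and securin for destruction so that chromosomes part and the cell divides. Most of these genes are transcribed in a wave in late S and G2, through promoter elements read by the MuvB complex, FOXM1 and NF-Y. Bone marrow monocytes arise from dividing progenitors, and macrophage-lineage cells given LPS are known to slow their cycle.

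The libraries held 20060867 to 32155727 counts, at which a count of 3 amounts to 0.0854 to 0.163 CPM (counts relative to the library total, after TMM scaling). Each gene of the set had 61 to 2729 counts in a library. Whether the 3 libraries of a group stem from different mice or cultures is not stated in the labels, and the replicate spread behind every p-value may therefore be technical. Platelet replicate 1 stood apart: 0.886% of its counts were mitochondrial, where the other libraries had 0.431 to 0.600%, and its counts differed from those of its replicates by a chi-square of 72.2 and 79.8 per degree of freedom, compared with 6.40 to 20.1 for all other replicate pairs. One label field also calls it a control, while its title and treatment name platelets; its title was followed here, and counts of calls are also given with this library left out. All 12 monocyte markers tested, among them Csf1r, Lyz2 and Cd14, were detected in every group.

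Together the 45 genes took up a small part of each library. They held 0.107, 0.101 and 0.104% of all counts in platelets + LPS libraries and 0.149, 0.159 and 0.169% in platelet libraries. In LPS libraries they held 0.0717, 0.0801 and 0.0775%, and in untreated libraries 0.137, 0.130 and 0.135%. The LPS libraries were thus the lowest and the platelet libraries the highest, with no overlap between any of the 4 groups on this unscaled share. After TMM scaling the 45 genes summed to 1155 to 1206 CPM in platelets + LPS, 1375 to 1468 in platelets, 834 to 917 in LPS and 1126 to 1201 in untreated libraries, so that platelets + LPS and untreated libraries then overlapped. In bulk RNA, fewer cells of a dividing type and less of these RNAs per cell cannot be told apart. Gene by gene, the platelet group had the highest mean CPM for 36 members and the LPS group the lowest for 41. The remaining places at the top went to platelets + LPS for 5 members, untreated for 3 and LPS for 1. From highest to lowest mean, 18 members ran platelets, platelets + LPS, untreated, LPS, another 18 ran platelets, untreated, platelets + LPS, LPS, and 3 (Kif11, Kif15 and Anln) ran untreated, platelets, platelets + LPS, LPS. By level per kilobase of exon, Ube2c, the ubiquitin-conjugating enzyme of the APC/C, was the highest member in every group, at 23.8 CPM per kb in platelets + LPS, 25.8 in platelets, 17.2 in LPS and 19.2 in untreated libraries. The median member was at 4.49, 4.84, 3.14 and 4.60 CPM per kb in those groups.

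**Figure D1:**
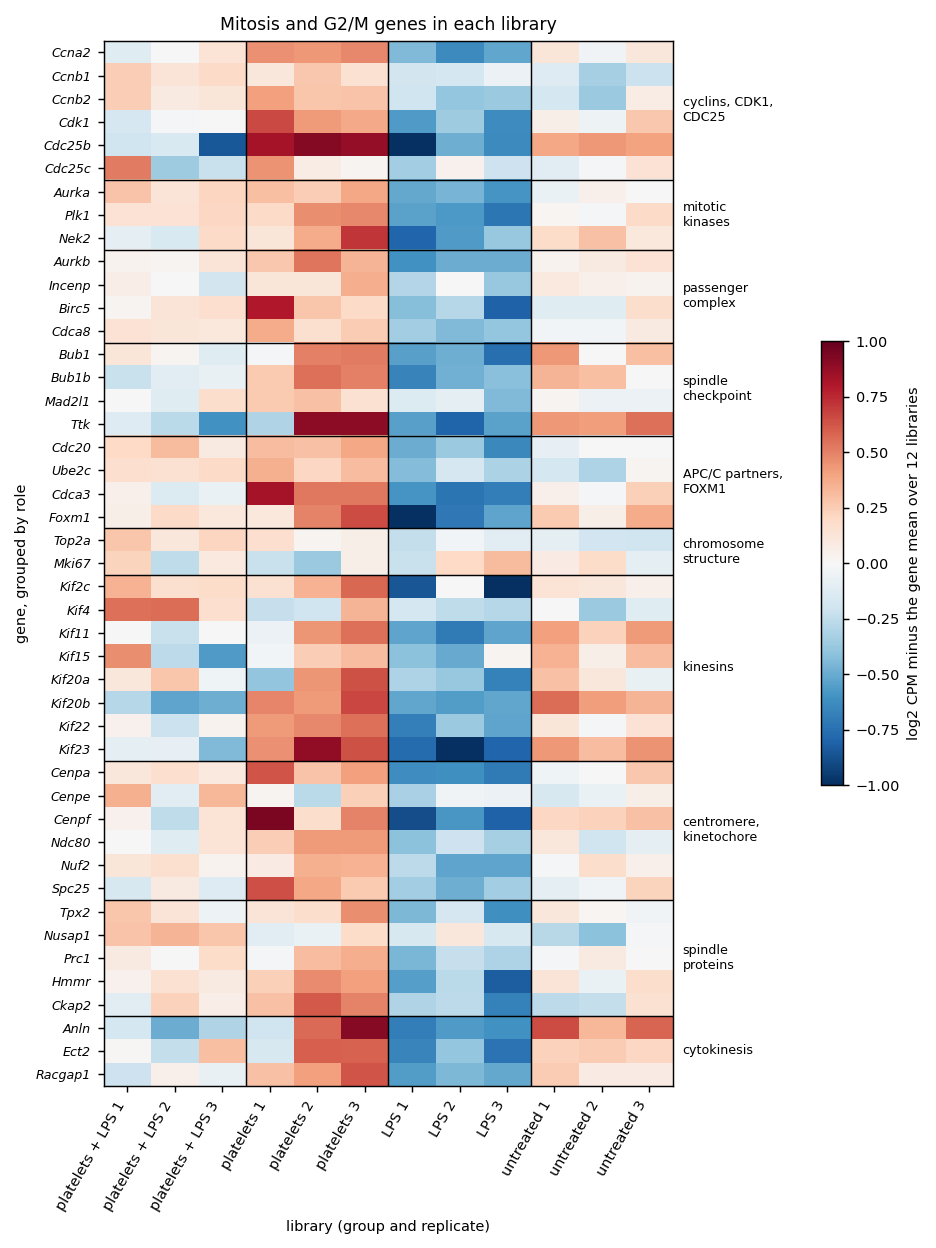
Log2 CPM of each of the 45 genes (rows, grouped by role) in each of the 12 libraries (columns), minus the gene's mean over all libraries; colours are cut off at 1 and −1. The 3 LPS columns are blue for most genes and the 3 platelet columns red, with Mki67, Kif4, Cenpe and Nusap1 among the rows that do not follow this order.

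The promoters of such genes often carry a CHR element (cell cycle genes homology region, bound by MuvB) and CCAAT boxes (bound by NF-Y). RefSeq promoter windows of 300 bases (250 before the gene start to 50 after it, build GRCm38.p6) were matched by symbol for 38 of the 45 genes, in 40 windows. A CHR element, searched as TTTGAA or TTCGAA on either strand, was in 33 of 40 windows (82.5%), against 14.4% of the windows of all genes tested and 19.2% of all RefSeq windows. A CCAAT box, searched as CCAAT on either strand, was in 31 (77.5%), against 38.2% and 37.4%. Both were in 28 windows (70.0%) of 26 genes, against 5.98% and 7.52%. With TTTGAA as the only spelling, 31 windows had the CHR element and 26 had both. The windows of the 4 most abundant genes with both elements are shown, read in the direction of the gene, with every CHR element (TTTGAA or TTCGAA, read on the other strand as TTCAAA and TTCGAA) and CCAAT box (read on the other strand as ATTGG) in capitals. They lie at chr11:99024140-99024439 (minus strand) for Top2a, chr2:164769679-164769978 (plus strand) for Ube2c, chr7:135716330-135716629 (minus strand) for Mki67 and chr10:69352863-69353162 (minus strand) for Cdk1. In Ube2c a CCAAT and an ATTGG overlap.
Top2a: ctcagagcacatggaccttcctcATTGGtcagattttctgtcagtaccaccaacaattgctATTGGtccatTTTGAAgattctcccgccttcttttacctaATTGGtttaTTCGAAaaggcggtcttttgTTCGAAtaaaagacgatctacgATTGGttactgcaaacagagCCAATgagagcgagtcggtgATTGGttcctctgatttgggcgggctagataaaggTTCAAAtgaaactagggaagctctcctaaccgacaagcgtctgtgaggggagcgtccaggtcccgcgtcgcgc
Ube2c: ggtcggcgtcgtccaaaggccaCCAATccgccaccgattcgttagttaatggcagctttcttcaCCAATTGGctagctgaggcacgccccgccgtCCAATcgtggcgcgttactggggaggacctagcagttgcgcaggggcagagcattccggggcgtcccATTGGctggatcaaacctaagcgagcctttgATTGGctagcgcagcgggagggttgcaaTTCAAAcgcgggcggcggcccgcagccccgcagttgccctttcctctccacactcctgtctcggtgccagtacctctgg
Mki67: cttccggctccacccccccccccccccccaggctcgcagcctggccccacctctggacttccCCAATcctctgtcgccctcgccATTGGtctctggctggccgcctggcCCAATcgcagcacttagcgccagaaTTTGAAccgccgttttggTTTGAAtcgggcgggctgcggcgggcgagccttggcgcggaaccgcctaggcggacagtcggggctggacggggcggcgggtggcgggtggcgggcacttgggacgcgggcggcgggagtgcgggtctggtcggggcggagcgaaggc
Cdk1: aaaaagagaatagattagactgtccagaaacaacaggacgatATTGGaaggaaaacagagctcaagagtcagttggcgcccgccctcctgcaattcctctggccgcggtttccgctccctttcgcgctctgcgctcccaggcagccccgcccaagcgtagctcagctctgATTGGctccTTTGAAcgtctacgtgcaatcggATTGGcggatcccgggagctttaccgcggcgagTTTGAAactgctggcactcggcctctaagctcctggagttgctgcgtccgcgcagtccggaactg
All 4 windows hold several CCAAT boxes and at least 1 CHR element, yet the RNA of these 4 genes moved differently: Cdk1 fell with LPS, the other 3 did not pass the test there, and Mki67 passed it in no comparison. A letter match describes the window and shows no binding. Of the members with a window, 19 of 23 that were higher with platelets before LPS held both elements, as did 7 of 15 that did not pass that test. With platelets alone it was 7 of 8 that were higher and 19 of 30 that did not pass. For falls it was 20 of 26 against 6 of 12 with LPS alone, and 12 of 16 against 13 of 21 with LPS after platelets. None of these differences was tested.

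**Figure D2:**
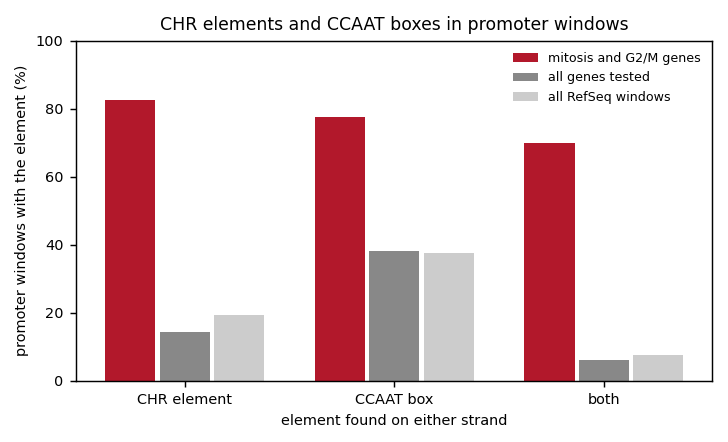
Share of RefSeq promoter windows (y axis, percent) with a CHR element, a CCAAT box or both on either strand, for windows of the mitosis and G2/M genes, of all genes tested and of all RefSeq windows. Both elements were in 70.0% of the windows of the mitosis and G2/M genes, against 5.98% of the windows of all genes tested.

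Genes were tested in 1 edgeR quasi-likelihood fit, with p-values adjusted by Benjamini-Hochberg over all genes tested and 0.05 as the threshold. Comparisons that share a group (LPS libraries stand in 2 of them, and so does every other group) are not independent, and their values are set side by side only.

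The first comparison asks what earlier contact with platelets did in cells that then met LPS. With platelets before LPS, 27 of the 45 genes (60%) were higher than with LPS alone and 0 were lower, where 4.41% of all genes tested were higher and 2.87% lower. The cyclins Ccna2, Ccnb1 and Ccnb2, the kinases Cdk1, Aurka, Plk1 and Aurkb, all 4 APC/C partners with FOXM1, and 5 of 8 kinesins were among them. At an unadjusted p under 0.05, edgeR put 36 members higher and 0 lower, and DESeq2 and limma-voom called 0 lower. The median log2 fold change was 0.48 over the members and 0.01 over all genes tested, and 44 of 45 members were above 0. In 36 members all 3 platelets + LPS libraries lay above all 3 LPS libraries, as in 14.7% of all genes tested. The calls of 9 genes held whichever library was left out: Ccna2, Aurka, Plk1, Aurkb, Cdca8, Cdc20, Cdca3, Foxm1 and Cenpa. Of the 12 fits without 1 library, Kif11 held its call in 2, Ccnb1 and Prc1 in 3 and Kif2c in 5. Ccnb2, Birc5, Bub1, Top2a, Kif4 and Racgap1 held theirs in 7, and the rest in 8 to 11. The count was 11 without LPS replicate 3, 13 without LPS replicate 1, 18 without LPS replicate 2, and 13, 14 and 16 without platelets + LPS replicates 1, 2 and 3.

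In cells not given LPS, fewer of the genes passed the test with platelets. Platelet libraries were higher than untreated ones in 9 members (20%) and lower in 0, where 3.63% of all genes tested were higher and 2.86% lower. These 9 were Ccna2, Ccnb1, Ccnb2, Cdk1, Aurka, Cdc20, Ube2c, Cdca3 and Kif22. Each was also among the 27 members (60%) that rose with platelets before LPS. That comparison has its own libraries on both sides but comes from the same fit. At an unadjusted p under 0.05, edgeR put 22 higher and 0 lower, and DESeq2 and limma-voom called 0 lower. The median was 0.27, against 0.00 over all genes tested, with 41 members above 0, and 25 members had no overlap between groups, against 12.5% of all genes tested. Of the 12 fits that left out 1 library, Aurka held its call in 1, Cdk1 in 4 and Cdc20 and Kif22 in 5. Ccnb2 held its call in 9, Ccnb1 and Ube2c in 10 and Ccna2 and Cdca3 in 11. None of the 9 calls held in every fit that left out 1 library: leaving out untreated replicate 2 left 0 calls, untreated replicate 1 or platelet replicate 2 left 3, platelets + LPS replicate 1 left 5, and platelet replicate 1 gave 13. With DESeq2 it was 19, and with only the 6 libraries of this comparison it was 2.

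**Figure D3:**
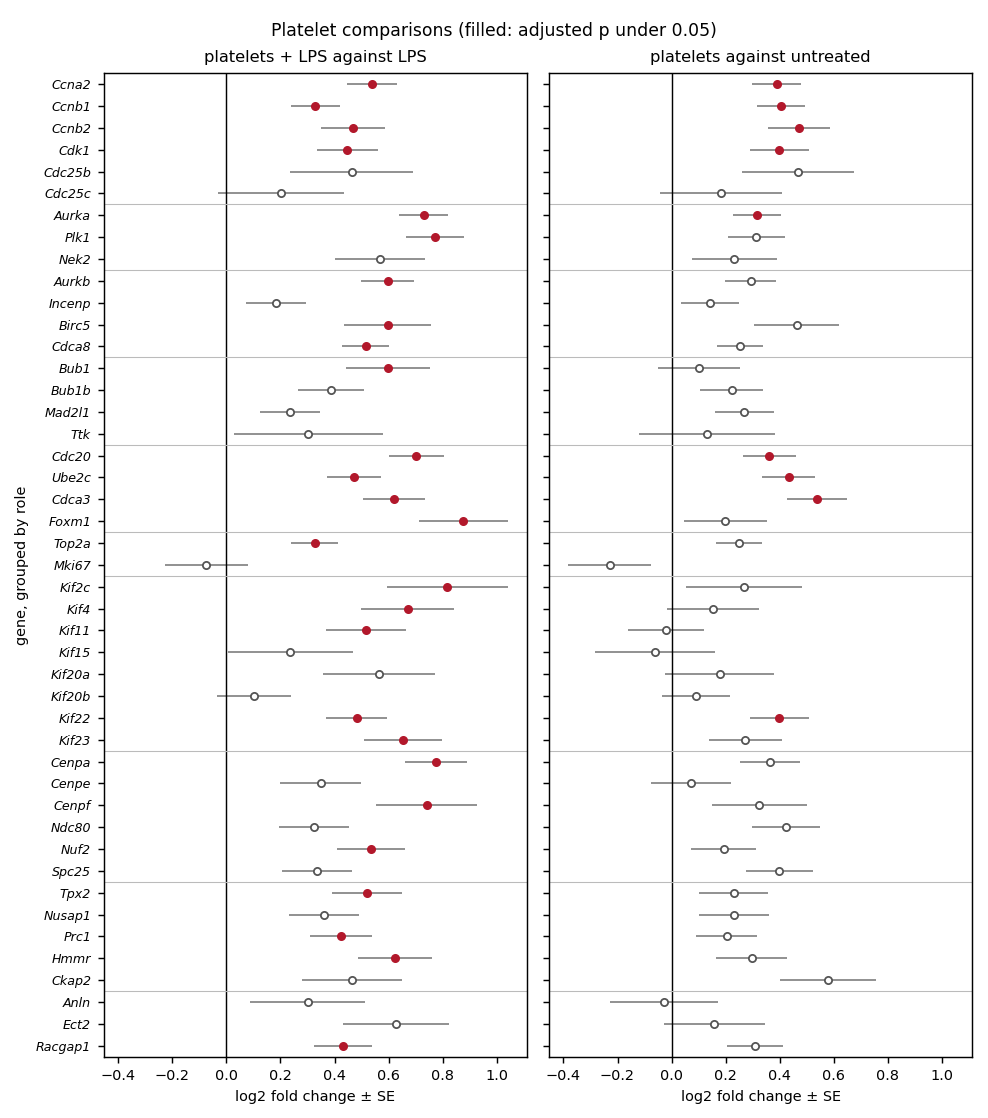
Log2 fold change ± SE of each of the 45 genes (rows, by role) for platelets + LPS against LPS (left) and platelets against untreated (right); filled points have an adjusted p under 0.05. Filled points number 27 on the left and 9 on the right, all above 0, and Mki67 is below 0 in both panels.

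LPS alone moved the set the other way. Of the 45 genes, 32 (71.1%) were lower with LPS than in untreated cells and 0 were higher, where 23.0% of all genes tested were lower and 27.7% higher. The steepest falls were in Kif23, Cdc25b, Anln and Ttk. At an unadjusted p under 0.05, edgeR put 33 lower and 0 higher, and DESeq2 and limma-voom called 0 higher. The median was −0.56, against 0.01 over all genes tested, and in 36 members all 3 LPS libraries lay under all 3 untreated ones, as in 28.5% of all genes tested. The 13 that did not pass the test were Ccnb1, Ccnb2, Cdc25c, Mad2l1, Ube2c, Top2a, Mki67, Kif4, Kif15, Cenpe, Ndc80, Nusap1 and Ckap2. The calls of 25 genes held whichever library was left out. Scaling by upper quartiles or by library size moved the median of all genes tested to −0.19 and −0.37, and that of the members to −0.76 and −0.95, so the members' median lay under that of all genes in each scaling.

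After platelets, LPS also lowered many of the genes. Platelets + LPS libraries were lower than platelet libraries in 18 members (40%) and higher in 1 (2.22%), where 21.8% of all genes tested were lower and 27.6% higher. The median was −0.32, against 0.02 over all genes tested, and 21 members had all 3 platelets + LPS libraries under all 3 platelet libraries, against 24.6% of all genes tested. For 1 member (Nusap1) they all lay above, as they did for 30.2% of all genes tested. In both LPS comparisons 17 genes fell, among them Ccna2, Cdk1, Cdc25b, Bub1b, Kif20b, Kif23, Anln and Racgap1. Another 15 fell with LPS alone and did not pass the test after platelets, such as Aurka (−0.10), Plk1 (−0.22) and Foxm1 (−0.32), while Ndc80 was called lower only after platelets. Without platelet replicate 1, 28 members were lower and 0 higher, with Plk1 (log2 −0.36, adjusted p = 0.00437) and Foxm1 (log2 −0.51, adjusted p = 0.00748) among them and Aurka still uncalled (−0.16, adjusted p = 0.149). With upper-quartile or library-size scaling, which lower the median of all genes tested to −0.22 and −0.34, 36 and 39 were lower and 0 higher. Of all 13151 genes tested, 4623 and 5749 were lower under those scalings, against 2871 with TMM.

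**Figure D4:**
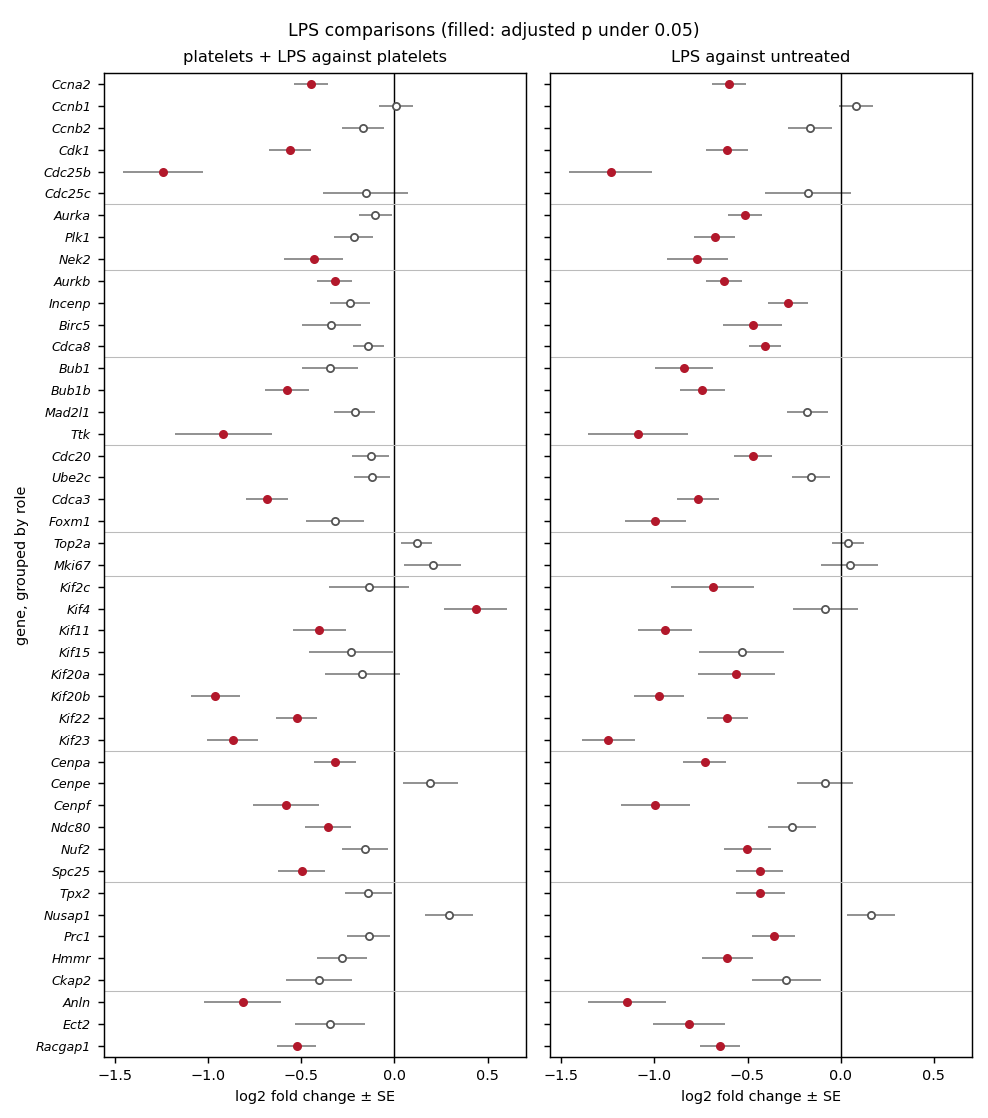
Log2 fold change ± SE of each of the 45 genes (rows, by role) for platelets + LPS against platelets (left) and LPS against untreated (right); filled points have an adjusted p under 0.05. Left, 18 filled points lie below 0 and that of Kif4 above it. Right, all 32 filled points lie below 0. Ccnb1 and Top2a sit near 0 here and fall below it in both panels when libraries are scaled by size alone.

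The difference between the platelet effect with LPS and without it was tested as an interaction. No member passed, in edgeR, DESeq2 or limma-voom, where 0.859% of all genes tested were higher and 0.722% lower in edgeR. At an unadjusted p under 0.05, edgeR put 10 higher and 0 lower. The smallest adjusted p was that of Aurka (log2 0.41, SE 0.13, adjusted p = 0.163), and the largest estimate that of Foxm1 (log2 0.68, SE 0.23, adjusted p = 0.225). The median was 0.22, against 0.01 over all genes tested, with 38 members above 0. It was 0.13 without platelet replicate 1, and Kif2c passed the test without LPS replicate 2. The same term compares the LPS effect after platelets with that without them.

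Among the cyclins, CDK1 and its phosphatases, the kinase itself had 43.2, 47.9 and 48.5 CPM in platelets + LPS libraries, 77.1, 65.5 and 63.4 CPM in platelet libraries, 32.9, 38.1 and 31.4 CPM in LPS libraries and 50.6, 47.0 and 58.6 CPM in untreated libraries. Its platelets + LPS libraries were all above the LPS ones and its platelet libraries above the untreated ones, and LPS lowered it on both backgrounds. Cdk1 rose by a log2 of 0.45 with platelets before LPS (SE 0.11, adjusted p = 0.0246) and of 0.40 with platelets alone (SE 0.11, adjusted p = 0.0427); the second was 0.33 (adjusted p = 0.0718) without platelet replicate 1. LPS changed Cdk1 by −0.56 after platelets and −0.61 without them. Ccna2, the cyclin A of S phase and G2, had 44.0, 47.9 and 52.5 CPM in platelets + LPS libraries, 65.5, 64.6 and 66.8 CPM in platelet libraries, 35.2, 30.7 and 33.4 CPM in LPS libraries and 52.0, 46.8 and 51.6 CPM in untreated libraries. It was higher with platelets by 0.54 before LPS and 0.39 alone, and lower with LPS, at −0.45 after platelets and −0.60 alone, all on the log2 scale. Ccnb1, the main mitotic cyclin B, had 45.8, 42.2 and 44.2 CPM in platelets + LPS libraries, 41.9, 46.7 and 42.9 CPM in platelet libraries, 34.0, 34.2 and 37.2 CPM in LPS libraries and 35.3, 30.7 and 33.4 CPM in untreated libraries. Both groups with platelets lay above both groups without them. Ccnb1 was higher with platelets before LPS (log2 0.33, SE 0.09, adjusted p = 0.0384) and with platelets alone (log2 0.40, SE 0.09, adjusted p = 0.013), while its values for LPS were 0.01 after platelets and 0.08 alone, both uncalled and below 0 with library-size scaling (−0.35 and −0.29). Its call with platelets before LPS held in 3 of the 12 fits without 1 library, and that with platelets alone in 10. Ccnb2 rose with platelets on both backgrounds (log2 0.47 and 0.47). Cdc25b, the phosphatase that first activates CDK1 at the centrosome, fell with LPS (log2 −1.24 after platelets and −1.24 alone) and was called with platelets in neither comparison. Cdc25c, its relative that acts at mitotic entry, passed the test in no comparison.

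**Figure D5:**
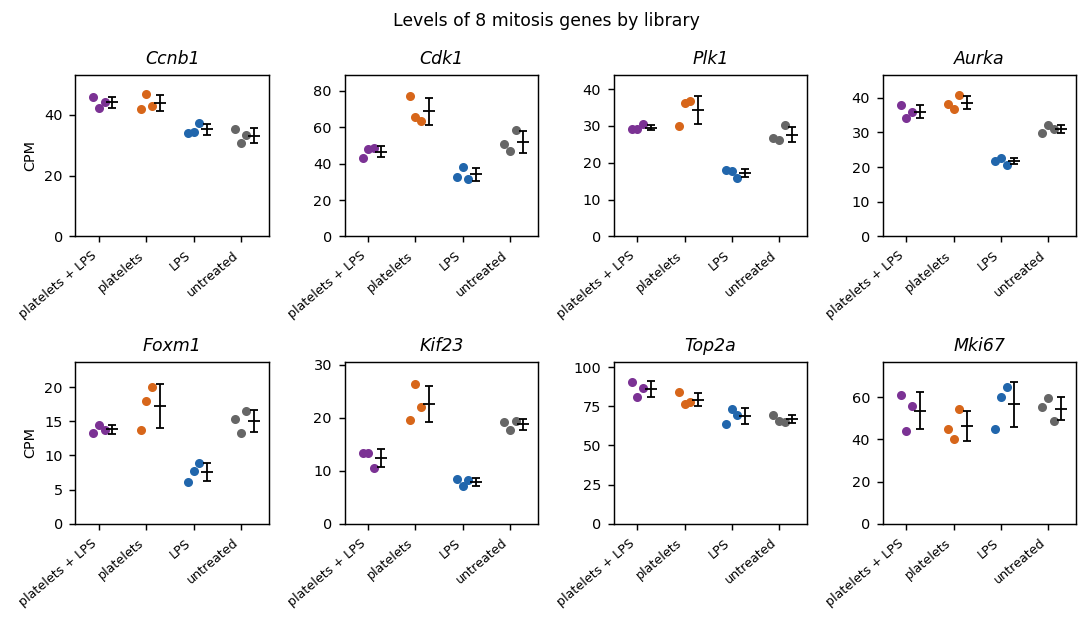
CPM of 8 genes in every library (points), with the mean and SD of the 3 libraries of each group beside them. For Plk1, Aurka and Foxm1 all LPS points lie under all others; for Ccnb1 the platelets + LPS and platelet points lie above the LPS and untreated ones; Mki67 points of all groups overlap.

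Of the mitotic kinases, Aurka, which matures centrosomes and builds the spindle, had 37.9, 34.1 and 36.0 CPM in platelets + LPS libraries, 38.3, 36.9 and 40.7 CPM in platelet libraries, 21.8, 22.6 and 20.7 CPM in LPS libraries and 29.8, 32.2 and 31.1 CPM in untreated libraries. The LPS libraries were lowest, and platelets + LPS libraries overlapped platelet libraries. Aurka was higher with platelets before LPS (log2 0.73, SE 0.09, adjusted p = 0.00011) and with platelets alone (log2 0.32, SE 0.09, adjusted p = 0.0455), and lower with LPS alone (log2 −0.52, SE 0.09, adjusted p = 0.000181), while the LPS value after platelets was −0.10 (adjusted p = 0.367). The call with platelets alone held in 1 of the 12 fits without 1 library. Plk1, the Polo-like kinase that triggers mitotic entry, had 29.1, 29.2 and 30.4 CPM in platelets + LPS libraries, 30.0, 36.3 and 36.8 CPM in platelet libraries, 18.2, 17.7 and 16.0 CPM in LPS libraries and 26.7, 26.1 and 30.1 CPM in untreated libraries. It showed a like order, with a log2 of 0.77 with platelets before LPS (SE 0.11, adjusted p = 0.000343) and −0.68 with LPS alone (SE 0.11, adjusted p = 6.86e-05). With platelets alone Plk1 was at 0.31 (adjusted p = 0.0948), its groups overlapped through platelet replicate 1, and without that library it passed the test (log2 0.42). The centrosomal kinase Nek2 fell with LPS on both backgrounds (log2 −0.43 after platelets and −0.77 alone) and missed the threshold with platelets before LPS (0.57, adjusted p = 0.051). After platelets its groups overlapped, and that call held in 8 of the 12 fits without 1 library.

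All 4 members of the chromosomal passenger complex, which corrects faulty chromosome attachments, fell with LPS alone, and 3 of them were higher with platelets before LPS. Incenp, its scaffold, had 62.5, 60.1 and 52.8 CPM in platelets + LPS libraries, 65.0, 65.0 and 77.1 CPM in platelet libraries, 48.8, 59.6 and 46.0 CPM in LPS libraries and 64.2, 62.1 and 61.5 CPM in untreated libraries. It was the exception among the risers, at 0.18 with platelets before LPS (adjusted p = 0.403), and fell with LPS alone (log2 −0.28, SE 0.11, adjusted p = 0.042). In the 12 fits without 1 library, the call of Incenp with LPS alone held in 5 and that of Birc5 in 10. Incenp also lost it with the replicate number as a block. Birc5, survivin, had 43.4, 46.7 and 47.9 CPM in platelets + LPS libraries, 74.1, 51.8 and 48.6 CPM in platelet libraries, 31.7, 35.0 and 24.3 CPM in LPS libraries and 39.2, 39.3 and 48.2 CPM in untreated libraries. Platelet replicate 1 was far above its replicates here. With platelets before LPS, Birc5 rose by a log2 of 0.60 (SE 0.16, adjusted p = 0.0333), its catalytic partner Aurkb by 0.60 and borealin (Cdca8) by 0.52. None of the 4 was called with platelets alone, with 4 of 4 values above 0, from 0.14 for Incenp to 0.46 for Birc5. Only Aurkb was lower with LPS after platelets (−0.32, adjusted p = 0.0107).

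The spindle checkpoint was lowered by LPS in 3 of its 4 genes. Bub1b, which encodes the BUBR1 inhibitor of the APC/C, had 21.7, 23.5 and 24.1 CPM in platelets + LPS libraries, 30.4, 37.2 and 36.0 CPM in platelet libraries, 16.0, 18.2 and 19.0 CPM in LPS libraries and 32.1, 31.3 and 25.5 CPM in untreated libraries. LPS lowered it after platelets (log2 −0.58, SE 0.12, adjusted p = 0.000729) and alone (log2 −0.74, SE 0.12, adjusted p = 8.26e-05), and it missed the threshold with platelets before LPS (0.39, adjusted p = 0.0692). Mad2l1, the MAD2 inhibitor of CDC20, had 30.6, 28.1 and 34.5 CPM in platelets + LPS libraries, 36.7, 37.5 and 33.9 CPM in platelet libraries, 27.9, 28.7 and 22.5 CPM in LPS libraries and 31.1, 29.3 and 29.3 CPM in untreated libraries. It passed the test in no comparison, with log2 values of 0.24 and 0.27 for platelets with and without LPS. The checkpoint kinase Bub1 was lower with LPS alone (−0.84) and the only one of the 4 that was higher with platelets before LPS (0.60, adjusted p = 0.0301). Ttk, which starts checkpoint signalling, fell with LPS after platelets (log2 −0.92, although those groups overlapped) and alone (−1.09).

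The APC/C partners and FOXM1 were the role in which every gene rose with platelets before LPS. Ube2c had 61.6, 61.0 and 62.8 CPM in platelets + LPS libraries, 70.2, 63.3 and 68.1 CPM in platelet libraries, 40.7, 49.0 and 44.1 CPM in LPS libraries and 48.8, 44.5 and 56.1 CPM in untreated libraries. It was higher with platelets before LPS (log2 0.47, SE 0.10, adjusted p = 0.00826) and with platelets alone (log2 0.43, SE 0.10, adjusted p = 0.0157), and was called with LPS in neither comparison (−0.12 after platelets and −0.16 alone). Cdc20, the activator that the checkpoint holds, had 32.7, 35.5 and 30.3 CPM in platelets + LPS libraries, 35.4, 34.9 and 37.4 CPM in platelet libraries, 20.2, 22.01 and 18.2 CPM in LPS libraries and 27.0, 28.5 and 28.4 CPM in untreated libraries. The LPS libraries were the lowest, and platelets + LPS libraries overlapped platelet libraries. Cdc20 rose with platelets by 0.70 before LPS and 0.36 alone. Cdca3, an adaptor that marks the inhibitory kinase WEE1 for destruction, had 26.9, 23.7 and 24.9 CPM in platelets + LPS libraries, 46.3, 37.4 and 37.5 CPM in platelet libraries, 17.3, 15.6 and 16.1 CPM in LPS libraries and 27.0, 25.8 and 30.7 CPM in untreated libraries. It had the smallest adjusted p of the set with platelets alone (log2 0.54, SE 0.11, adjusted p = 0.00755), rose with platelets before LPS (log2 0.62, SE 0.11, adjusted p = 0.00322) and fell with LPS on both backgrounds (−0.68 and −0.77). Foxm1, the transcription factor of the G2 wave, was at 13.8 ± 0.626 CPM in platelets + LPS, 17.2 ± 3.23 CPM in platelets, 7.58 ± 1.34 CPM in LPS and 15.0 ± 1.60 CPM in untreated libraries (SD, n = 3 each). It had the largest rise of the set with platelets before LPS (log2 0.88, SE 0.16, adjusted p = 0.00359) and fell with LPS alone (log2 −0.995, SE 0.16, adjusted p = 9.39e-05).

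Neither of the 2 chromosome structure genes was called with LPS under TMM scaling. Top2a, the topoisomerase that untangles sister chromatids, had 90.5, 80.9 and 86.8 CPM in platelets + LPS libraries, 83.9, 76.2 and 77.6 CPM in platelet libraries, 63.4, 73.2 and 69.5 CPM in LPS libraries and 69.7, 65.5 and 65.0 CPM in untreated libraries. It was higher with platelets before LPS (log2 0.33, SE 0.09, adjusted p = 0.03), and its LPS values were 0.12 after platelets and 0.04 alone, uncalled, and below 0 with library-size scaling (−0.24 and −0.34). Mki67, the chromosome surface protein behind the Ki-67 proliferation stain, had 60.9, 43.8 and 55.9 CPM in platelets + LPS libraries, 44.8, 40.3 and 54.3 CPM in platelet libraries, 44.7, 59.9 and 65.0 CPM in LPS libraries and 55.4, 59.4 and 48.8 CPM in untreated libraries. All groups overlapped, and its log2 values were −0.07 for platelets + LPS against LPS, −0.23 for platelets, 0.20 for LPS after platelets and 0.05 for LPS alone, none past the threshold, with both LPS values below 0 under upper-quartile and library-size scaling.

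The 8 kinesins, motors that move chromosomes and slide spindle microtubules, spread widely. Kif22, which pushes chromosome arms, had 23.3, 19.5 and 23.1 CPM in platelets + LPS libraries, 30.4, 31.5 and 33.1 CPM in platelet libraries, 14.1, 17.5 and 15.7 CPM in LPS libraries and 24.5, 22.5 and 25.05 CPM in untreated libraries. It rose with platelets by 0.48 before LPS (adjusted p = 0.0152) and 0.40 alone (adjusted p = 0.0397), the only kinesin called with platelets alone. Kif11, the motor that separates spindle poles, had 18.9, 16.1 and 18.8 CPM in platelets + LPS libraries, 18.1, 25.6 and 27.6 CPM in platelet libraries, 13.1, 11.6 and 13.1 CPM in LPS libraries and 25.1, 22.1 and 25.3 CPM in untreated libraries. It fell with LPS alone (log2 −0.94, SE 0.15, adjusted p = 5.34e-05), was higher with platelets before LPS (0.52, adjusted p = 0.0449) and stood at −0.02 with platelets alone. The call with platelets before LPS held in 2 of the 12 fits without 1 library. Kif23, the motor of the central spindle, had 13.4, 13.4 and 10.4 CPM in platelets + LPS libraries, 19.5, 26.3 and 22.05 CPM in platelet libraries, 8.36, 7.11 and 8.22 CPM in LPS libraries and 19.2, 17.6 and 19.4 CPM in untreated libraries. It had the steepest fall of the set with LPS alone (log2 −1.25, SE 0.14, adjusted p = 1.98e-06), fell after platelets too (−0.87), and was higher with platelets before LPS (0.65, adjusted p = 0.0108). Kif20b, a kinesin of late cytokinesis, had 7.45, 6.29 and 6.45 CPM in platelets + LPS libraries, 12.7, 12.2 and 14.5 CPM in platelet libraries, 6.33, 6.17 and 6.32 CPM in LPS libraries and 13.4, 12.1 and 11.5 CPM in untreated libraries. It fell with LPS after platelets (log2 −0.96, SE 0.13, adjusted p = 1.54e-05) and alone (log2 −0.97, SE 0.13, adjusted p = 1.5e-05) and was called with platelets in neither comparison. Kif4, a chromokinesin, had 15.8, 15.9 and 12.1 CPM in platelets + LPS libraries, 9.22, 9.44 and 13.7 CPM in platelet libraries, 9.59, 9.05 and 8.88 CPM in LPS libraries and 10.8, 8.38 and 9.96 CPM in untreated libraries. It was the one member called higher with LPS after platelets (log2 0.44, SE 0.17, adjusted p = 0.0427), although those groups overlapped, and it was not called there with DESeq2, with any other scaling tried or in 8 of the 12 fits without 1 library. Kif2c, a microtubule depolymerase at centromeres, rose by 0.82 with platelets before LPS (adjusted p = 0.0371), a call that held in 5 of the 12 fits without 1 library. Kif15, a spindle motor, passed the test in no comparison. Kif20a, which carries the passenger complex to the midzone, was called with LPS alone (−0.56) and in no other comparison.

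Among the centromere and kinetochore genes, Cenpa, the histone variant that marks centromeres, had 27.5, 28.6 and 27.3 CPM in platelets + LPS libraries, 39.3, 31.0 and 33.9 CPM in platelet libraries, 16.5, 16.6 and 15.6 CPM in LPS libraries and 24.7, 25.4 and 30.7 CPM in untreated libraries. All platelets + LPS libraries were above all LPS libraries (log2 0.77, SE 0.11, adjusted p = 0.000589), and LPS lowered Cenpa after platelets (log2 −0.32) and alone (−0.73). Cenpe, the kinetochore motor, had 28.9, 21.1 and 28.6 CPM in platelets + LPS libraries, 23.1, 18.8 and 26.8 CPM in platelet libraries, 18.1, 22.1 and 21.7 CPM in LPS libraries and 20.2, 21.6 and 23.7 CPM in untreated libraries. Its groups overlapped in all 4 comparisons, and it was called in none. Cenpf and Nuf2 also rose with platelets before LPS (0.74 and 0.53), and 4 of the 6 genes (Cenpa, Cenpf, Nuf2 and Spc25) fell with LPS alone, with log2 values from −0.996 for Cenpf to −0.44 for Spc25. Ndc80, which binds microtubules at the kinetochore, reached 0.42 with platelets alone (adjusted p = 0.0585) and passed the test without platelet replicate 1 (log2 0.50, adjusted p = 0.0329).

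Of the spindle microtubule proteins, Tpx2, the activator of Aurora A, had 39.5, 35.7 and 31.6 CPM in platelets + LPS libraries, 35.8, 36.9 and 45.04 CPM in platelet libraries, 23.95, 29.1 and 21.3 CPM in LPS libraries and 35.4, 33.1 and 31.9 CPM in untreated libraries. It was higher with platelets before LPS (log2 0.52, SE 0.13, adjusted p = 0.0233) and lower with LPS alone (log2 −0.43, SE 0.13, adjusted p = 0.0115). Prc1, which bundles the central spindle, had 25.7, 24.1 and 27.4 CPM in platelets + LPS libraries, 23.8, 29.9 and 31.1 CPM in platelet libraries, 17.6, 20.5 and 19.4 CPM in LPS libraries and 23.9, 25.7 and 24.2 CPM in untreated libraries. Its calls were the same in direction, at 0.42 (adjusted p = 0.0371) and −0.36 (adjusted p = 0.0168), and held in 3 and 10 of the 12 fits without 1 library. Hmmr, a spindle assembly protein, rose by 0.62 with platelets before LPS, and Ckap2 stood at 0.58 with platelets alone (adjusted p = 0.0702; 0.68 and past the threshold without platelet replicate 1). Nusap1, which bundles microtubules near chromosomes, had 21.2, 22.00 and 21.0 CPM in platelets + LPS libraries, 16.0, 16.6 and 19.8 CPM in platelet libraries, 15.5, 18.8 and 15.6 CPM in LPS libraries and 14.3, 13.1 and 17.2 CPM in untreated libraries. Its platelets + LPS libraries lay above all others, its LPS values of 0.29 after platelets and 0.16 alone missed the threshold, and the second was below 0 with upper-quartile and both with library-size scaling. No gene of this role was called with LPS after platelets or with platelets alone.

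The 3 cytokinesis genes all fell with LPS alone. Racgap1, which with KIF23 forms the centralspindlin complex, had 35.1, 42.1 and 38.5 CPM in platelets + LPS libraries, 49.7, 54.1 and 62.7 CPM in platelet libraries, 27.6, 29.8 and 28.5 CPM in LPS libraries and 48.5, 43.0 and 43.0 CPM in untreated libraries. It rose with platelets before LPS (log2 0.43, SE 0.11, adjusted p = 0.0219) and fell with LPS on both backgrounds (−0.53 and −0.65). Anln, the contractile-ring scaffold, had 13.0, 10.4 and 11.9 CPM in platelets + LPS libraries, 12.8, 21.7 and 27.6 CPM in platelet libraries, 9.12, 9.95 and 9.69 CPM in LPS libraries and 23.1, 18.5 and 21.99 CPM in untreated libraries. Platelet replicate 1 was far under its replicates, and the platelet group overlapped both the untreated and the platelets + LPS groups. Anln fell with LPS after platelets (log2 −0.82, SE 0.20, adjusted p = 0.00362) and alone (log2 −1.15, SE 0.21, adjusted p = 0.000257). Ect2, the exchange factor that starts furrowing, was lower with LPS alone (−0.81) and missed the threshold with platelets before LPS (0.63, adjusted p = 0.0685).

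Exons of 13 members overlap a gene on the opposite strand in GENCODE M21, and the library kit named in the labels does not mark strand. For 8 of them (Ccna2, Cdc20, Cdc25c, Cdca8, Kif20a, Kif4, Nusap1 and Prc1) the partner had at least 10% as many counts as the member, up to 752% for Cdc20 with Elovl1 and 572% for Kif4 with Pdzd11. Reads in those shared exons cannot be told apart.

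Other cell cycle genes were read from lists beside the 45. Of 67 other mitosis genes, 16 (23.9%) were higher and 2 (2.99%) lower with platelets before LPS (median 0.37). Of all genes tested, 4.41% were higher and 2.87% lower there. With platelets alone 6 (8.96%) were higher and 0 lower (median 0.18), against 3.63% and 2.86% of all genes tested. In that comparison 1 was lower at an unadjusted p under 0.05 in edgeR, and DESeq2 and limma-voom called 0 lower. LPS after platelets gave 9 (13.4%) higher and 26 (38.8%) lower (median −0.30), against 27.6% and 21.8% of all genes tested. LPS alone gave 9 (13.4%) higher and 36 (53.7%) lower (median −0.51), against 27.7% and 23.0%. With platelets before LPS, Espl1, the separase that cuts cohesin, rose by 1.02, Ska2 by 1.05, Kif18b by 1.17 and Dlgap5 by 0.67 on the log2 scale. Espl1 was at 13.8 ± 1.86 CPM in platelets + LPS, 16.6 ± 3.18 CPM in platelets, 6.86 ± 0.494 CPM in LPS and 16.8 ± 0.442 CPM in untreated libraries (SD, n = 3 each) and passed the interaction test (log2 1.03, SE 0.21, adjusted p = 0.0203). In that test 1 of the 67 genes (1.49%) was higher and 0 lower, against 0.859% and 0.722% of all genes tested. Cks1b, Pbk, Pimreg and Spc24 rose with platelets alone by 0.54, 0.46, 0.56 and 0.61. LPS alone raised Pttg1, the securin that restrains separase, by 1.66 and Trip13 by 1.48, while the APC/C inhibitor Fbxo5 (−2.21) and the CDK1-inhibiting kinase Wee1 (−2.26) fell.

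The 46 DNA replication and G1/S genes had medians of −0.79 for LPS after platelets (34 or 73.9% lower, 0 higher) and −0.86 for LPS alone (38 or 82.6% lower, 0 higher). Of all genes tested, 21.8% and 23.0% were lower and 27.6% and 27.7% higher. With platelets before LPS 8 (17.4%) were higher and 0 lower (median 0.22), against 4.41% and 2.87% of all genes tested. With platelets alone 1 (2.17%) was higher, Ccne1 (cyclin E1, log2 0.37), against 3.63% of all genes tested. Cdt1, the licensing factor of replication origins, was at 22.00 ± 3.17 CPM in platelets + LPS, 85.0 ± 0.286 CPM in platelets, 11.6 ± 1.15 CPM in LPS and 87.4 ± 4.21 CPM in untreated libraries. It rose with platelets before LPS (log2 0.92, SE 0.11, adjusted p = 0.000101), fell with LPS alone (log2 −2.91, SE 0.11, adjusted p = 4.16e-12) and passed the interaction test (log2 0.96, SE 0.15, adjusted p = 0.00388). In that test 1 of the 46 genes (2.17%) was higher and 0 lower, against 0.859% and 0.722% of all genes tested. The Cdt1 inhibitor Gmnn and the nucleotide reductase subunit Rrm2 fell with LPS alone (log2 −2.94 and −1.99). At an unadjusted p under 0.05, edgeR put 0 of these genes higher with LPS after platelets and 1 with LPS alone, and 0 lower in either platelet comparison; DESeq2 and limma-voom called 0 in those directions.

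Of 11 tested CDK inhibitors, D-type cyclins and their kinases, 4 (36.4%) were higher and 6 (54.5%) lower with LPS both after platelets and alone. Cdkn1a, the CDK inhibitor p21, was at 2420 ± 123 CPM in platelets + LPS, 635 ± 99.7 CPM in platelets, 3117 ± 276 CPM in LPS and 690 ± 58.6 CPM in untreated libraries. It was lower with platelets before LPS (log2 −0.37, SE 0.10, adjusted p = 0.0446) and higher with LPS alone (log2 2.18, SE 0.11, adjusted p = 7.4e-11). Cdkn2b and Cdk6 were also lower with platelets before LPS (−1.13 and −0.44) and Cdkn2c higher (0.68). Of the 11 genes, 1 (9.09%) was higher and 3 (27.3%) lower there, against 4.41% and 2.87% of all genes tested. With platelets alone 1 (9.09%) was higher and 0 lower, against 3.63% and 2.86%. Among D-type cyclins, Ccnd1 fell (−3.80) and Ccnd2 rose (2.46) with LPS alone. Of 24 genes of MuvB, the E2F and RB families and NF-Y, 6 (25%) were higher and 10 (41.7%) lower with LPS on each background, where 27.6 and 27.7% of all genes tested were higher and 21.8 and 23.0% lower, after platelets and alone. E2f2, an activating E2F, fell with LPS alone (log2 −4.74) and was higher with platelets before LPS (log2 1.04, SE 0.21, adjusted p = 0.00548), at 2.08 ± 0.359 CPM against 1.00 ± 0.188 CPM in LPS libraries, and E2f7 rose there as well (1.17). Mybl2, the B-MYB partner of MuvB, fell with LPS alone (−1.50), and Rb1 was lower with platelets alone (log2 −0.46, SE 0.12, adjusted p = 0.0377). Of the 24 genes, 0 were higher and 1 (4.17%) lower with platelets alone, against 3.63% and 2.86% of all genes tested. With platelets before LPS 2 (8.33%) were higher and 0 lower, against 4.41% and 2.87%.

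Markers of other cell types moved in part with the same comparisons, and their part in the results was not tested. Of all genes tested, 4.41% were higher and 2.87% lower with platelets before LPS, and 3.63% and 2.86% with platelets alone. For LPS these shares were 27.6% and 21.8% after platelets and 27.7% and 23.0% alone. The 11 myeloid progenitor markers, 7 of them tested, summed to 13.1 to 22.8 CPM in platelets + LPS, 19.5 to 23.0 in platelets, 16.2 to 21.1 in LPS and 13.8 to 14.3 in untreated libraries. Sox4 was the one called with platelets alone (1.19), and none was called with platelets before LPS. Mpo was at 0 in all platelet libraries, Elane in all LPS libraries and Ms4a3 in all untreated libraries. With LPS alone Kit, Myb and Gfi1 were higher and Cd34, Cebpe and Sox4 lower. The 10 erythroid markers found summed to 7.12 to 9.35 CPM in platelets + LPS, 11.9 to 24.8 in platelets, 0.0362 to 0.893 in LPS and 1.26 to 2.07 in untreated libraries. Of these, the globins Hba-a1, Hba-a2 and Hbb-bs were higher with platelets in both comparisons, while Epor and Car1 were at 0 in all platelets + LPS, platelet and LPS libraries. The 13 platelet and megakaryocyte markers summed to 3635 to 3912 CPM in platelets + LPS, 3403 to 6109 in platelets, 3902 to 4717 in LPS and 3790 to 4497 in untreated libraries. Of the 12 tested, 6 (50%) were higher and 1 (8.33%) lower with platelets before LPS, against 4.41% and 2.87% of all genes tested. With platelets alone 5 (41.7%) were higher and 1 (8.33%) lower, against 3.63% and 2.86%. With LPS after platelets 0 were higher and 4 (33.3%) lower, and with LPS alone 1 (8.33%) and 1 (8.33%). The 7 basophil and mast cell markers summed to 82.6 to 93.7 CPM in platelets + LPS, 7.84 to 9.70 in platelets, 103 to 107 in LPS and 1.37 to 2.56 in untreated libraries, with 4 of 5 tested higher with platelets alone. With LPS alone 2 of the 5 were higher and 1 lower, and 3 had values below 0 (median log2 −1.30, highest 8.78). With LPS after platelets 1 was higher and 0 lower, and with platelets before LPS 2 were higher and 0 lower. The 10 neutrophil markers, 7 of them tested, summed to 163 to 187 CPM in platelets + LPS, 156 to 198 in platelets, 257 to 309 in LPS and 342 to 363 in untreated libraries, so that both groups with platelets lay under both groups without them. Of these, Mmp8 alone was called with platelets, lower before LPS (log2 −0.93) and alone (−1.03), and it held most of each sum; Stfa2l1 was at 0 in every library and Ly6g in all platelets + LPS and untreated libraries. The 9 dendritic cell markers summed to 398 to 425 CPM in platelets + LPS, 8.31 to 10.8 in platelets, 355 to 425 in LPS and 4.25 to 6.34 in untreated libraries. Of the 8 tested, 4 were higher and 1 lower with LPS after platelets, 5 were higher and 1 lower with LPS alone, 3 (Ccr7, Fscn1 and Flt3) were higher with platelets alone, and with platelets before LPS edgeR called none (1, Fscn1, had an unadjusted p under 0.05). The B lineage list summed to at most 4.94 CPM and the T and NK cell list to at most 1.02 CPM in a library. The monocyte list summed to 40653 to 43709 CPM in platelets + LPS, 40869 to 44099 in platelets, 37746 to 41808 in LPS and 34802 to 38601 in untreated libraries. Within that list genes moved both ways. Of its 12 genes, 6 (50%) were higher and 3 (25%) lower with LPS alone, with log2 values from −2.37 to 5.47. With LPS after platelets 7 (58.3%) were higher and 4 (33.3%) lower. With platelets before LPS 3 (25%) were higher and 2 (16.7%) lower, and with platelets alone 1 (8.33%) and 1 (8.33%).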

How the data were processed

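Read counts per gene were analysed in 12 libraries. The deposited files hold whole-number counts, not normalized, and the submitters' processing notes list STAR 2.7.9a, featureCounts, Subread 2.0.1, Salmon 1.5.2 and fastp 0.23.1 without their roles. Per the labels, cDNA was pre-amplified with a SMARTer kit and tagmented with Nextera XT, neither of which marks strand. The sources used here give no genome build, annotation or strand setting. No molecular identifiers were used, so PCR copies count as reads and the floor of 3 counts covers counting error only.

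Groups and replicate numbers came from the titles. Genes kept by filterByExpr were fitted with edgeR 4.0.16 in R 4.3.3 by quasi-likelihood, with TMM scaling, all 12 libraries and 4 group means (8 residual degrees of freedom), with Benjamini-Hochberg adjustment over the 13151 genes tested. CPM uses the TMM-scaled library size; exon lengths come from GENCODE M21. The members, lists and tests were chosen with earlier results of these data known. Genes named per library are the 2 most abundant of each of the 10 roles and the member with the smallest p in each direction of each comparison; other lists name up to 4 genes by smallest p. Foxm1, Espl1, Cdt1, Cdkn1a and E2f2, given by group means, were chosen after their values were seen. Alternatives were DESeq2 1.42.0, limma-voom (limma 3.58.1), other scalings and filters, a replicate block, a minimum absolute log2 fold change of 1, fits to the compared groups alone, and fits without each library in turn. The fit was tested on simulated data.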

Additional observations from a re-analysis of the deposited data

How the results depend on the processing

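Precision is limited by 3 libraries per group and by changes that are small: with a minimum absolute log2 fold change of 1, 0 members were called for platelets + LPS against LPS, 0 for platelets against untreated, 1 for platelets + LPS against platelets and 4 for LPS against untreated. The members called there were all lower. Of the 13151 genes tested, 160 were higher and 53 lower in the first comparison and 164 and 65 in the second. For platelets + LPS against platelets 1793 were higher and 1191 lower, and for LPS against untreated 1794 and 1365. At this cutoff the share of members called exceeded that of all genes in no comparison. In most other settings the counts stayed within 1.5 times the reported ones. For platelets against untreated, the 9 calls became 19 with the DESeq2 Wald test, 2 with only the groups compared and 0 to 13 when 1 library was left out. For platelets + LPS against LPS, the 27 calls became 11 to 31 when 1 library was left out. For platelets + LPS against platelets, the 19 calls became 36 with upper-quartile factors, 39 with library size alone and 14 to 28 when 1 library was left out. Under those 2 scalings the genes called lower among all 13151 tested also rose, from 2871 to 4623 and 5749. Without platelet replicate 3 there were 18 calls among the members, with 2 higher and 16 lower. The interaction had 0 to 1 call when 1 library was left out, and its median of 0.22 then ranged from 0.13 to 0.28. LPS against untreated had 28 to 33 calls without 1 library, 27 to 32 of them among the 32 reported. The median of the members moved to −0.76 (upper-quartile factors) and −0.95 (library size alone) for LPS against untreated, and to −0.56 and −0.68 for platelets + LPS against platelets. Those scalings also turned uncalled values into falls. For platelets + LPS against platelets this held for 17 (upper-quartile factors) and 19 (library size alone) members already below 0, and for LPS against untreated for 6 and 9. Members that changed sign were Ccnb1 for platelets + LPS against platelets (−0.23 with upper-quartile factors and −0.35 with library size alone) and for LPS against untreated (−0.29 with library size alone), and Top2a with library size alone (−0.24 after platelets and −0.34 against untreated). The cause of these changes was not tested, apart from the shift in the median of all genes that each scaling brings.

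Same-numbered libraries were not more alike than others: correlations of deviations from the group means ranged from −0.228 to 0.140 over 18 same-numbered pairs and from −0.189 to 0.239 over 36 others. With 3 libraries per group these values cannot show whether libraries were paired. With the replicate number as a block, 5 members were called for platelets against untreated in place of 9, and 21 for platelets + LPS against LPS in place of 27. There were 18 in place of 19 for platelets + LPS against platelets, and 31 in place of 32 for LPS against untreated. Only the groups compared could not be run for the interaction, which needs all 4 groups.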
